A study of Mus musculus with 6 samples.

Results

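Integrins are the adhesion receptors with which T cells hold on to other cells and to extracellular matrix, and 9 genes of integrin chains expressed by T cells are described here. They were chosen by name, as the alpha and beta chains of T cells other than Itga7 and Itgae: of 10 listed symbols, 9 (Itgal, Itgb2, Itga4, Itgb1, Itgb7, Itgb3, Itgav, Itga6 and Itga5) had a row among the 14868 genes of the deposited table. Itga2, the collagen-binding alpha chain, had no row and was not analysed here. The libraries came from naïve CD4+ T cells of 3 WT and 3 Ikzf4-/- samples, both on a C57BL/6J background. Ikzf4 encodes Eos, a zinc finger transcription factor of the Ikaros family. The labels give neither the ages of the mice nor how the Ikzf4 allele was made, nor whether each library came from its own mouse, so p-values measure only the spread between these samples, which may be technical. Cells of both genotypes were stimulated for 72 h on plates coated with anti-CD3 (5 µg/mL) and anti-CD28 (2 µg/mL). The medium of both held interleukin-4 (10 ng/mL) and an antibody that blocks interferon gamma (10 µg/mL), conditions that drive T helper 2 (Th2) differentiation. The comparison asks which genes differ when Th2 cells develop without Eos.

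Each integrin at the cell surface is a pair of 1 alpha and 1 beta chain, and chains can change partners, so that the set of chains a cell makes fixes which ligands it can bind. Itgal and Itgb2 encode the chains of LFA-1, which binds ICAM molecules on antigen-presenting cells and endothelium and holds the immunological synapse together. Itga4 pairs with Itgb1 to bind VCAM1 and fibronectin, or with Itgb7 to bind MADCAM1, the address molecule of gut venules. Itgav pairs with Itgb3, among others, to bind vitronectin, osteopontin and related matrix proteins, while Itga5 and Itga6 pair with Itgb1 to bind fibronectin and laminin. Talin and kindlin switch integrins into their binding state from inside the cell, by docking on short motifs in the cytoplasmic end of the beta chain.

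The 4 beta chains, Itgb3 (called below) among them, are shown by the last 150 bases of their coding sequence (GENCODE M21, GRCm38), because this end carries the docking motifs. These bases run 5′ to 3′ to the stop codon and cover parts of 2 exons in each gene: chr11:104665549-104667145 on the plus strand for Itgb3, chr8:128726103-128732088 on the plus strand for Itgb1, chr15:102216160-102216513 on the minus strand for Itgb7, and chr10:77564718-77565240 on the plus strand for Itgb2. Capitals mark in-frame codons of the NPxY or NPxF motif (asparagine, proline, any residue, then tyrosine or phenylalanine).
Itgb3: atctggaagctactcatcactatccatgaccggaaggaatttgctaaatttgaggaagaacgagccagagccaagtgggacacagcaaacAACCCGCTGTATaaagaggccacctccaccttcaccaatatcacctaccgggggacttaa
Itgb1: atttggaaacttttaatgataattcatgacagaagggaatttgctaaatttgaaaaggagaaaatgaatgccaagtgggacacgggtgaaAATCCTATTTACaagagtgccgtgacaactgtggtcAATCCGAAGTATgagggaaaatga
Itgb7: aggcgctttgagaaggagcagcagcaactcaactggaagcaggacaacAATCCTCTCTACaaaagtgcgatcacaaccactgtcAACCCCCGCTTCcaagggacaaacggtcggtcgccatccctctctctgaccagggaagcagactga
Itgb2: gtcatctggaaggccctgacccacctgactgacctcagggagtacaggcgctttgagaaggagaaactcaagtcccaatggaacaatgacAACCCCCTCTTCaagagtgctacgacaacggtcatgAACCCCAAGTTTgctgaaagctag
Itgb1, Itgb2 and Itgb7 held 2 such motifs each, with 24 bases between them. Itgb3 held 1, and the 12 bases at the place of the other motif were aatatcacctac. These code for asparagine first and tyrosine last but lack the proline, so they are not marked. Docking was not tested, and the lack of a mark does not show that nothing docks there. Over 96 bases aligned without gaps on the first motif, Itgb3 was identical to Itgb1 at 57.3% of positions, to Itgb7 at 50% and to Itgb2 at 33.3%. Among the other chains, Itgb1 and Itgb7 were identical at 57.3%, Itgb2 and Itgb7 at 47.9%, and Itgb1 and Itgb2 at 45.8%.

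Ikzf4 itself had a mean normalized read count of 580 ± 153 (SD, n = 3) in WT and 24.6 ± 13.9 (SD, n = 3) in Ikzf4-/- libraries, and every library matched its label (log2 fold change -4.64, SE 0.37, limma adjusted p = 0.000389). The values behind every result are normalized read counts: reads per gene divided by 1 factor per library. The values were whole multiples of 1 step per library. Division by the step would put the reads counted over the 14868 genes at 34701390 to 40604346 per library. In Ikzf4-/- replicates 1 and 3 this is uncertain, because the step was close to 1. On the first principal component WT replicate 1 lay at -41.3, apart from the other WT libraries at -12.5 and -5.26, while the Ikzf4-/- libraries lay between 11.1 and 30.8. The cells carried the markers of CD4 T cells. The summed level of 8 such genes was 103180 to 107353 in WT and 107804 to 111118 in Ikzf4-/- libraries, and 1 of them, Cd5, was called higher. The summed level of 7 Th2 markers was 23957 to 28799 in WT and 18734 to 21307 in Ikzf4-/- libraries, with Il4, Il13 and Ccr8 called lower. The rule for calls, given below, called 1.77% of all genes. Among the Th2 markers, Il5 was low, at 88.1 to 136 in WT and 32.5 to 65.6 in Ikzf4-/- libraries. Il1rl1 was lower still, at 8.73 to 25.2 in WT and 9.42 to 39.2 in Ikzf4-/- libraries. Of markers of other cells, the B cell genes Cd79a and Cd79b (sums of 51.1 to 90.4 over all libraries), 1 of 9 myeloid genes (59.6 to 96.1), 2 of 7 platelet genes (37.8 to 71.9) and 1 of 4 natural killer cell genes (149 to 299) had a row, without Lyz2, Csf1r, Pf4, Ppbp or Ncr1. The 2 CD8 genes summed to 232 to 423, and 1 of 5 endothelial and stromal genes, Pecam1, had a row (1089 to 1271) and Cdh5 and Kdr had none. None of the marker genes of other cells was called. In bulk RNA, fewer cells of a type and less RNA per cell cannot be told apart.

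Of the 9 integrin chains, 1 was called and was lower in Ikzf4-/- cells: Itgb3, the beta chain of the vitronectin receptor, fell by 23.7%. A gene was called at a Benjamini-Hochberg adjusted p under 0.05 over all 14864 genes tested with limma, a rule that called 1.77% of all genes 1.2% as lower and 0.572% as higher in Ikzf4-/- cells. The remaining 8 chains were not called. The authors' deposited table calls 2 of the 9 at the same threshold, Itgb3 and Itgb1, both lower, where it calls 6.34% of the genes with an adjusted p and 3.89% as lower. Among them the fitted log2 fold changes ran from -0.49 for Itga5 to 0.07 for Itgal, and 7 of the 9 chains had a fitted change below 0, as had 48.7% of all genes. The median log2 fold change of the 9 chains was -0.19, beside 0.0048 for all genes tested. At an unadjusted p under 0.05 there were 5 chains, all lower in Ikzf4-/- cells (Itgb3, Itgb1, Itga5, Itga4 and Itgb7), where 18.1% of all genes passed in either direction and 10.1% as lower. The values of the 3 Ikzf4-/- libraries lay below all 3 WT values for Itgb3, Itgb1 and Itga4, as they did for 12.2% of all genes.

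**Figure D1:**
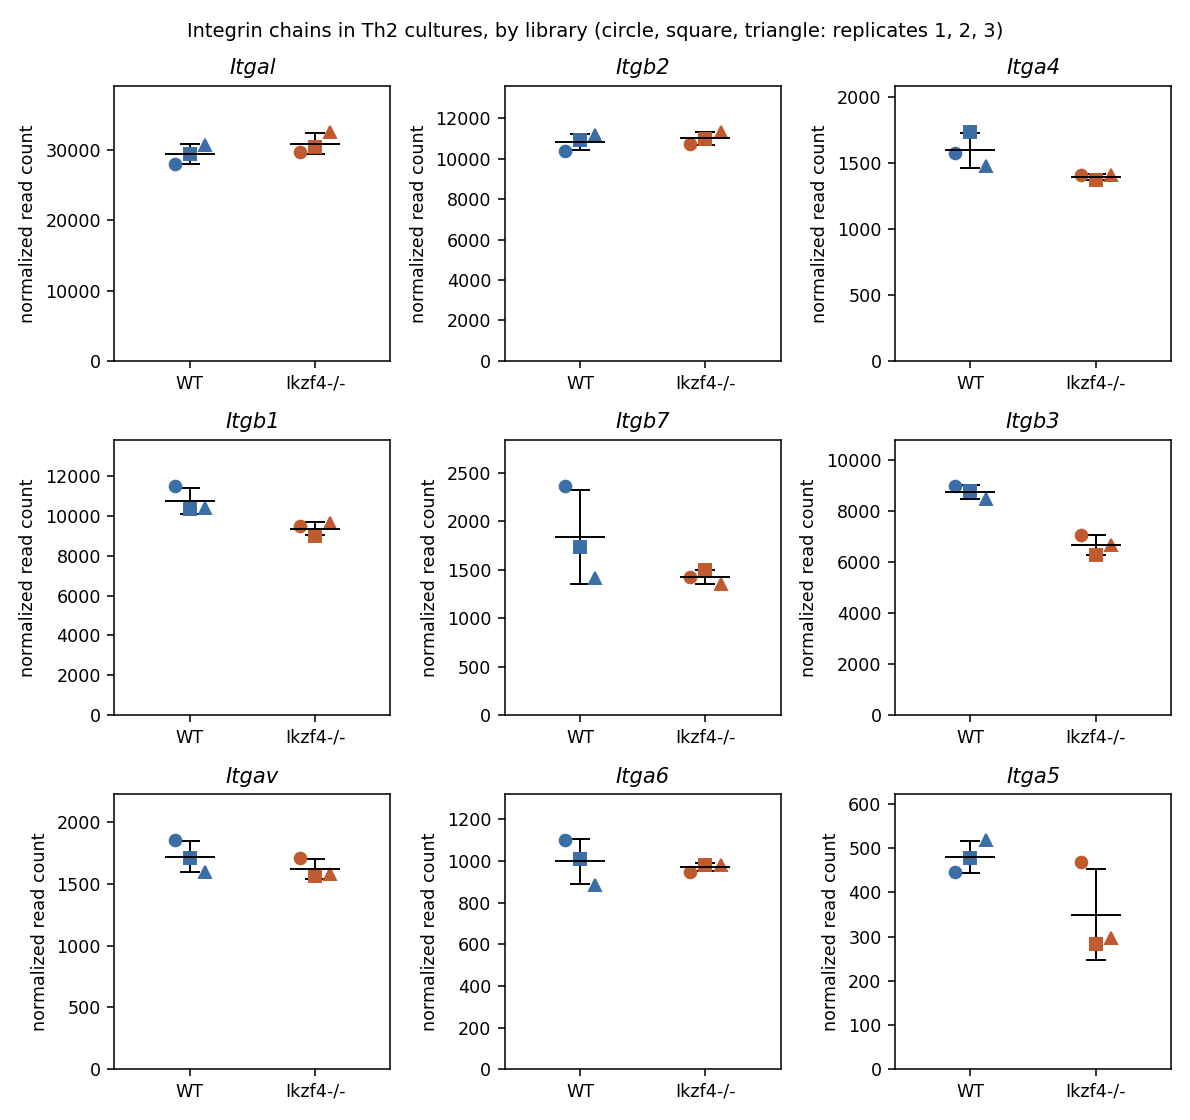
Normalized read count (y axis, from 0) of each integrin chain in the 3 WT and 3 Ikzf4-/- libraries, with 1 symbol per library and the mean ± SD in black. The genotypes are separate for Itgb3, Itgb1 and Itga4 and overlap for the other chains, and Itga5 in Ikzf4-/- replicate 1 (468) lies among the WT values.

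Itgb3 (ENSMUSG00000020689, chromosome 11, 104608000 to 104670476 on the plus strand of GRCm38), whose product pairs with the Itgav chain, had normalized read counts of 8996, 8783 and 8482 in WT replicates 1 to 3. They were 7067, 6297 and 6681 in Ikzf4-/- replicates 1 to 3. The highest Ikzf4-/- value was thus below the lowest WT value, and the spread within each genotype was small against the gap. The mean fell from 8754 ± 258 to 6681 ± 385 (SD, n = 3 each), and the fitted log2 fold change was -0.39 (SE 0.05, 95% confidence interval -0.50 to -0.28, limma adjusted p = 0.0107). The authors' deposited table lists Itgb3 at -0.39 on the same scale (adjusted p = 4.46e-08). The size hardly moved when each library was left out in turn, with log2 fold changes from -0.43 to -0.35, and Itgb3 was called in 5 of these 6 fits. Without Ikzf4-/- replicate 3 the adjusted p was 0.0571, in a fit that called 20 genes of the whole table.

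Itgav (ENSMUSG00000027087, chromosome 2, 83724397 to 83806916, plus strand), the alpha chain that pairs with Itgb3, stood at 1852, 1707 and 1598 in the WT libraries and at 1710, 1565 and 1575 in the Ikzf4-/- libraries. These ranges overlap, and the log2 fold change of -0.09 (95% confidence interval -0.24 to 0.06, limma adjusted p = 0.554) was not called. The interval covers anything from a 15.3% decrease to a 4.57% increase, so a change of Itgav as large as the fitted change of Itgb3 lies outside it.

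The chains of LFA-1 showed no detectable difference. Itgal (ENSMUSG00000030830, chromosome 7, 127296260 to 127335138, plus strand) had 28013, 29477 and 30739.8 normalized reads in WT and 29752, 30358 and 32584 in Ikzf4-/- libraries. Its log2 fold change was 0.07 with a 95% confidence interval from -0.04 to 0.18 (limma adjusted p = 0.512). Itgb2 (ENSMUSG00000000290, chromosome 10, 77530252 to 77565708, plus strand), the beta chain shared by the leukocyte integrins, had 10386, 10915 and 11171 in WT and 10718, 10968 and 11334 in Ikzf4-/- libraries. The genotypes overlap for both genes, and the log2 fold change of Itgb2 was 0.02 (95% confidence interval -0.08 to 0.12, limma adjusted p = 0.829). Itgb2 lies on the chromosome of Ikzf4.

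Itgb1 (ENSMUSG00000025809, chromosome 8, 128685654 to 128733200, plus strand), the most widely shared beta chain, had normalized read counts of 11506, 10332 and 10382 in WT and 9471, 8994 and 9629 in Ikzf4-/- libraries. The genotypes did not overlap. Its log2 fold change of -0.20 (SE 0.05, 95% confidence interval -0.31 to -0.08) had a limma adjusted p of 0.0862 and was not called, while the authors' deposited table lists it at -0.20 with an adjusted p of 0.0226. Itgb1 was called in 0 of the 6 limma fits that left out 1 library, with adjusted p-values from 0.0706 to 0.251.

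Itga4 (ENSMUSG00000027009, chromosome 2, 79255426 to 79333123, plus strand), the chain shared by the VCAM1 and MADCAM1 receptors, had 1580, 1739.6 and 1478 normalized reads in WT and 1410, 1372 and 1407 in Ikzf4-/- libraries. The genotypes did not overlap, but the lowest WT and the highest Ikzf4-/- values were close, and the log2 fold change of -0.19 (95% confidence interval -0.34 to -0.04) was not called (limma adjusted p = 0.171). Exons of Itga4 share 1124 bases with Cerkl on the opposite strand, and the sources used here do not say whether counting used strand. Cerkl stood at 119 ± 44.1 in WT and 133 ± 7.81 in Ikzf4-/- libraries (SD, n = 3 each).

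Itgb7 (ENSMUSG00000001281, chromosome 15, 102215995 to 102231944, minus strand), the beta chain of gut homing, spread widely among the WT libraries, at 2366, 1740.5 and 1413, against 1424, 1499 and 1356 in the Ikzf4-/- libraries. Only WT replicates 1 and 2 lay above all Ikzf4-/- values. The log2 fold change was -0.34 (95% confidence interval -0.65 to -0.02, limma adjusted p = 0.251). It was -0.14 without WT replicate 1 (adjusted p = 0.531) and -0.51 without WT replicate 3 (adjusted p = 0.0392), the only fit of the 6 with a library left out in which Itgb7 was called.

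Itga5 (ENSMUSG00000000555, chromosome 15, 103344286 to 103366763, minus strand), the alpha chain of the fibronectin receptor, had the lowest level per kb of the 9 chains (below) and normalized read counts of 446, 478 and 518 in WT. The Ikzf4-/- libraries were at 468, 284 and 297: replicates 2 and 3 lay well below every WT library and replicate 1 lay among them. The log2 fold change was -0.49 with a wide 95% confidence interval, from -0.87 to -0.12 (limma adjusted p = 0.157). Of the 6 fits that left out 1 library, Itga5 was called in 1, without Ikzf4-/- replicate 1 (log2 fold change -0.72, adjusted p = 0.0431). The other 5 gave log2 fold changes from -0.55 to -0.36 and adjusted p-values from 0.173 to 0.388.

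Itga6 (ENSMUSG00000027111, chromosome 2, 71745616 to 71858416, plus strand), the laminin-binding alpha chain, had 1099.7, 1008 and 886 normalized reads in WT and 947, 979.9 and 982 in Ikzf4-/- libraries. All Ikzf4-/- values fell inside the WT range. The log2 fold change was -0.04 (95% confidence interval -0.22 to 0.15, limma adjusted p = 0.865).

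**Figure D2:**
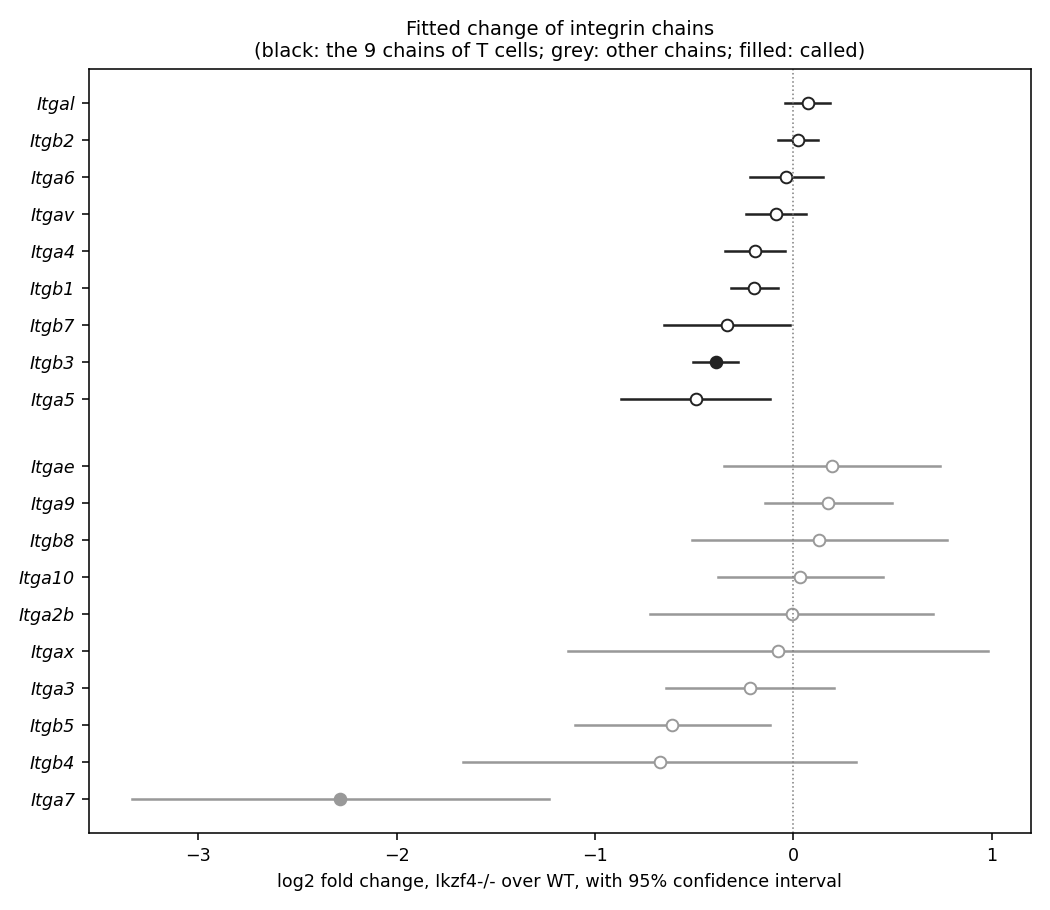
Fitted log2 fold change (x axis, Ikzf4-/- over WT) with its 95% confidence interval for the 9 chains of T cells (black) and 10 other integrin chains (grey), where filled circles are called. The interval of Itgb3 runs from -0.50 to -0.28, and those of Itgal, Itgb2, Itga6 and Itgav cross 0.

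To compare levels between genes, normalized read counts were divided by the exon length of each gene in kb. Itgal ranked highest with a mean over the 6 libraries of 4590.4 per kb, followed by Itgb2 (3576), Itgb1 (2463), Itgb3 (1308) and Itgb7 (589.6). Below them came Itgav (155), Itga6 (109), Itga4 (107) and Itga5 (84.2). Each of the first 6 chains was separate in its range over the 6 libraries from the chain ranked next, but Itga6 overlapped with Itga4 and Itga4 with Itga5. The alpha chains other than Itgal thus stood below all 4 beta chains on this scale. With the longest transcript as the length, the ranks of all 9 chains were the same, Itgav (236) and Itga6 (228) overlapped, and neither Itga6 and Itga4 (153) nor Itga4 and Itga5 (94.1) did.

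**Figure D3:**
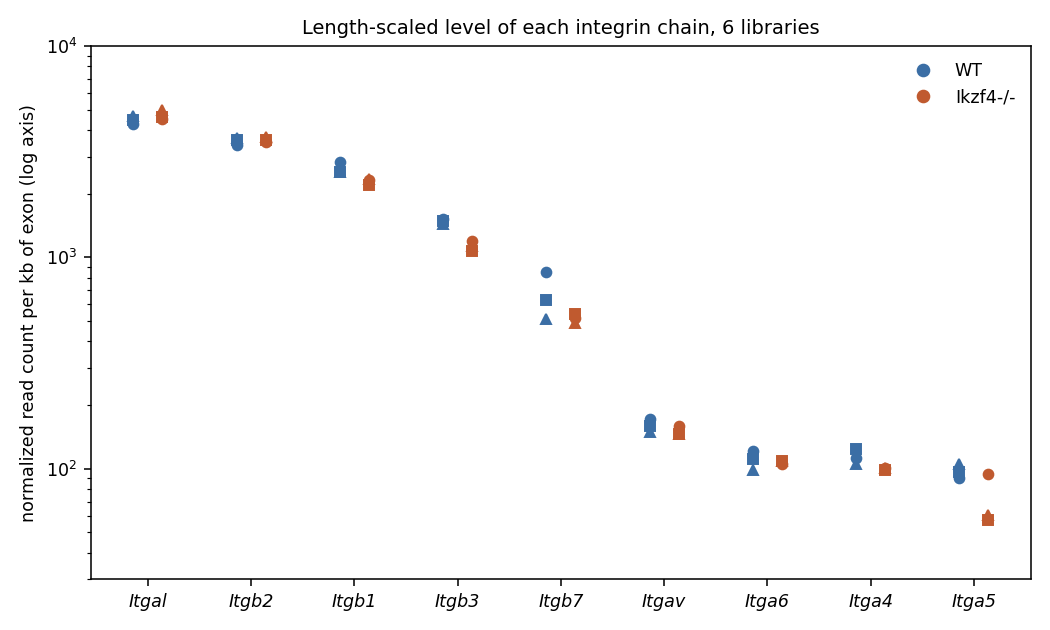
Normalized read count per kb of exon (y axis, log scale) of the 9 chains in each of the 6 libraries, ordered by their mean. The 4 beta chains and Itgal lie between 490 and 4960 per kb, and the 4 remaining alpha chains between 57.5 and 172 per kb.

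Ratios of partner chains within each library, on the same per kb scale, were compared without a test. Itgav over Itgb3 was 0.113, 0.107 and 0.104 in WT and 0.133, 0.137 and 0.130 in Ikzf4-/- libraries. The genotypes did not overlap in this ratio, which was 0.108 ± 0.00487 in WT and 0.133 ± 0.00350 in Ikzf4-/- libraries (SD, n = 3 each). Itgb3 still exceeded Itgav by 7.33 to 9.66 times in every library. Itgal over Itgb2 was 1.25 to 1.28 in WT and 1.29 to 1.34 in Ikzf4-/- libraries, also without overlap, but the mean log2 ratios differed by only 0.05. Itga6 over Itgb1 was 0.0386 to 0.0441 in WT and 0.0452 to 0.0493 in Ikzf4-/- libraries, a difference of 0.16 in the mean log2 ratio. Single genes did not overlap between the genotypes for 23.1% of all genes tested, and no such share was computed for ratios. Itgb3 and Itgb1 did not overlap by themselves, so the ratios over them are not separate findings. The size of these ratios depends on the length used, though the difference between the genotypes does not: with the longest transcript, Itgb3 exceeded Itgav by 4.91 to 6.47 times, and Itga6 over Itgb1 was 0.0755 to 0.0864 in WT and 0.0885 to 0.0964 in Ikzf4-/- libraries.

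The ratios that involve Itga4, Itgb7 and Itga5 overlapped between the genotypes. Itgb7 over Itgb1, the competing partners of the Itga4 chain, was 0.303, 0.248 and 0.201 in WT and 0.222, 0.246 and 0.208 in Ikzf4-/- libraries. Itga4 over the sum of both was 0.0308 to 0.0394 in WT and 0.0353 to 0.0358 in Ikzf4-/- libraries, so transcripts of the beta partners exceeded those of Itga4 by 25.4 to 32.5 times per kb of exon and by 18.8 to 24.1 times with the longest transcript. Itga5 over Itgb1 was 0.0321 to 0.0413 in WT and 0.0255 to 0.0409 in Ikzf4-/- libraries.

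**Figure D4:**
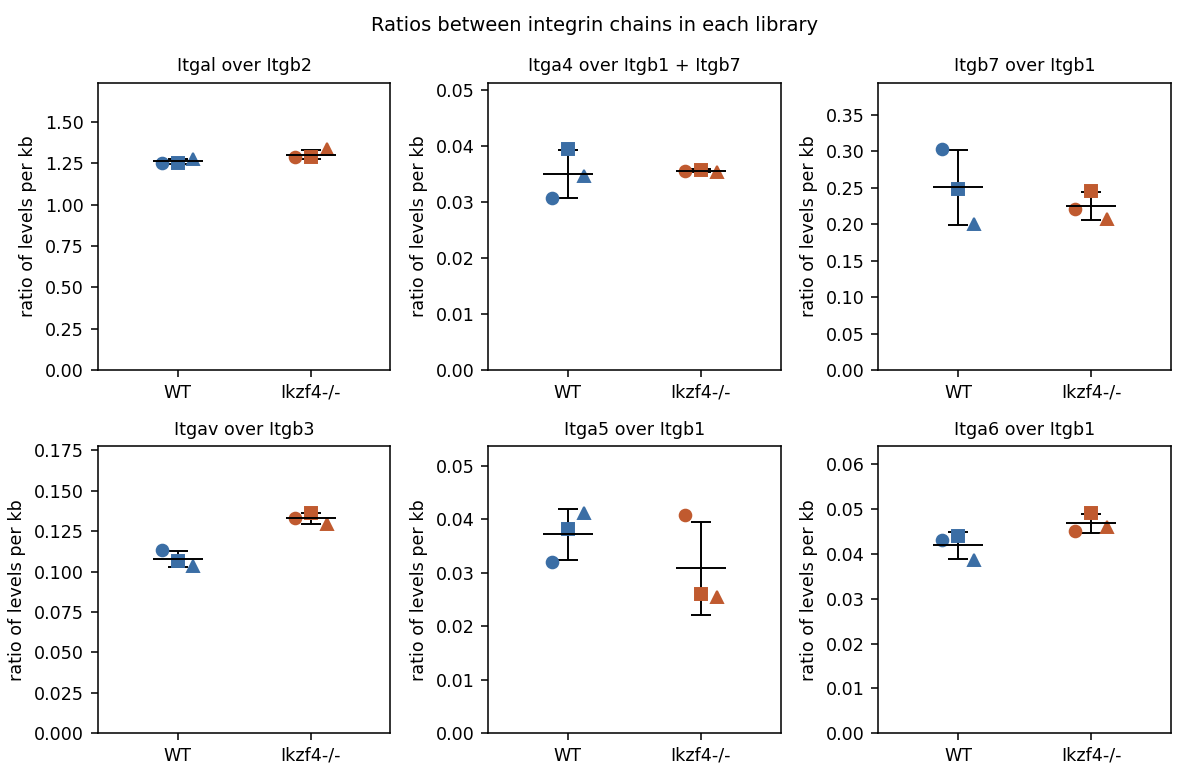
Ratio of length-scaled levels (y axis, from 0) for 6 pairs of chains in the 3 WT and 3 Ikzf4-/- libraries, with the mean ± SD in black. The genotypes are separate for Itgav over Itgb3, Itgal over Itgb2 and Itga6 over Itgb1, without a test. Single genes were separate for 23.1% of all genes tested.

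The genes whose pattern over the 6 libraries was most like that of Itgb3 were sought among the other 10560 genes with a mean of at least 100, by the root mean square distance between centred log2 values. Mgat4b, a glycosyltransferase that branches N-glycans, was nearest (distance 0.028), at 259, 259.7 and 258 in WT and 203, 185 and 195 in Ikzf4-/- libraries. Mfsd3 followed (0.037), at 223 to 230.0 in WT and 172 to 181 in Ikzf4-/- libraries. The next was Il2rb (0.046), the beta chain of the interleukin-2 receptor, at 17924 to 19367 in WT and 13649 to 14985 in Ikzf4-/- libraries. Because these 3 genes were chosen for likeness to Itgb3, their lower values in Ikzf4-/- libraries follow from the choice. Only Il2rb among them was called (log2 fold change -0.37, limma adjusted p = 0.0129), while Mgat4b had an adjusted p of 0.0922 and Mfsd3 of 0.147.

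Genes that activate integrins from inside the cell were followed as a list, and 0 of the 26 tested were called by limma, where 1.77% of all genes were. At an unadjusted p under 0.05 there were 5 lower and 1 higher, where 18.1% of all genes passed in either direction and 10.1% as lower, and the median log2 fold change was -0.03. The authors' deposited table calls 3 of the list, all lower, Cyth1 (adjusted p = 0.0151) and Skap2 (0.00896) among them. It calls 3.89% of its genes with an adjusted p as lower, and 6.34% in either direction. Cyth1, which encodes cytohesin-1, a partner of the Itgb2 tail, had the smallest p of the list, with 4652 ± 210 normalized reads in WT and 4028 ± 87.0 in Ikzf4-/- libraries (SD, n = 3 each; limma adjusted p = 0.0621). Skap2, an adaptor in integrin activation, stood at 562 ± 68.8 and 410 ± 24.5 (SD, n = 3 each; limma adjusted p = 0.0642). Of the proteins that dock on beta tails, 2 are named here by their role, talin and kindlin. Tln1, talin, had 19287 ± 1243 in WT and 20034 ± 321 in Ikzf4-/- libraries (limma adjusted p = 0.610). Fermt3, the kindlin of blood cells, had 11394 ± 711 and 9891 ± 122 (limma adjusted p = 0.0702; SD, n = 3 each for both genes).

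Of 23 tested genes of signalling from bound integrins, 0 were called by limma, with 2 lower and 4 higher at an unadjusted p under 0.05 (18.1% of all genes in either direction) and a median log2 fold change of -0.04. The authors' deposited table calls 1 lower and 1 higher, beside 6.34% of all its genes. Nedd9, a scaffold of focal adhesion signalling in lymphocytes, lay nearest to the threshold. It stood at 5110, 5484 and 5434 in WT and at 6339, 6316 and 5985 in Ikzf4-/- libraries, without overlap (log2 fold change 0.22, limma adjusted p = 0.0505). It was called with quantile scaling (0.0464), equal library totals (0.0437), a minimum of 10 in every library (0.0468) and a pseudocount of 10 (0.0476). It was also called with array weights (0.0342), with the replicate number as a block (0.0367) and in the authors' deposited table (0.00646). It was not called with upper quartile scaling (0.0509), no filter (0.0504) or a pseudocount of 0.1 (0.0523), nor in any of the 6 fits that left out 1 library (adjusted p from 0.0501 to 0.161). Rac2, a small GTPase of blood cells, stood at 19001 ± 610 in WT and 16818 ± 263 in Ikzf4-/- libraries (SD, n = 3 each; limma adjusted p = 0.0634). The authors' deposited table calls Rac2 lower (adjusted p = 0.0125).

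Among 11 tested genes of integrin ligands, 1 was called by limma, Lama5, beside 1.77% of all genes, and the median log2 fold change was 0.00036. Before adjustment, 2 lower and 1 higher genes had a p under 0.05 (18.1% of all genes in either direction). The authors' deposited table calls 2, both lower, beside 3.89% of all its genes as lower and 6.34% in either direction. Lama5 encodes a laminin alpha chain, a matrix protein that laminin-binding integrins recognise. Its normalized read counts were 1419, 820.4 and 521 in WT and 398, 305 and 367 in Ikzf4-/- libraries. The genotypes did not overlap, and WT replicate 1 was the highest by far. The log2 fold change was -1.25 (SE 0.27, limma adjusted p = 0.0490), and Lama5 was called in 2 of the 6 fits that left out 1 library, at a log2 fold change of -0.88 when WT replicate 1 was left out and of -1.60 when WT replicate 3 was. The other 4 fits gave an adjusted p of 0.106 without WT replicate 2, 0.1004 without Ikzf4-/- replicate 1, 0.156 without Ikzf4-/- replicate 2 and 0.155 without Ikzf4-/- replicate 3. Quantile scaling gave 0.0502, and a pseudocount of 0.1 gave 0.0515.

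Of 11 membrane partners of integrins, tetraspanins among them, 0 were called by limma, with 4 lower and 2 higher at an unadjusted p under 0.05 (18.1% of all genes in either direction, 10.1% as lower) and a median log2 fold change of -0.03. The authors' deposited table calls 2 lower and 1 higher, beside 6.34% of all its genes. Cd47, the integrin-associated protein that is known as a partner of the Itgav and Itgb3 pair, stood at 14040, 10580 and 9944 in WT and at 8792, 8423 and 8283 in Ikzf4-/- libraries. WT replicate 1 again lay highest, and the genotypes did not overlap (log2 fold change -0.42, limma adjusted p = 0.0647). Cd47 was called without WT replicate 1 (log2 fold change -0.27, adjusted p = 0.0165) and without WT replicate 3 (-0.52, 0.0224), and not in the other 4 fits that left out 1 library (adjusted p from 0.0940 to 0.204). It was also called with array weights (adjusted p = 0.0353) and with the replicate number as a block (0.0127), and not in the authors' deposited table (0.0813). Cd53, a tetraspanin of leukocytes, had 14840 ± 1387 in WT and 12418 ± 640 in Ikzf4-/- libraries (SD, n = 3 each; limma adjusted p = 0.0802). The authors' deposited table calls Cd53 lower (adjusted p = 0.00725).

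**Figure D5:**
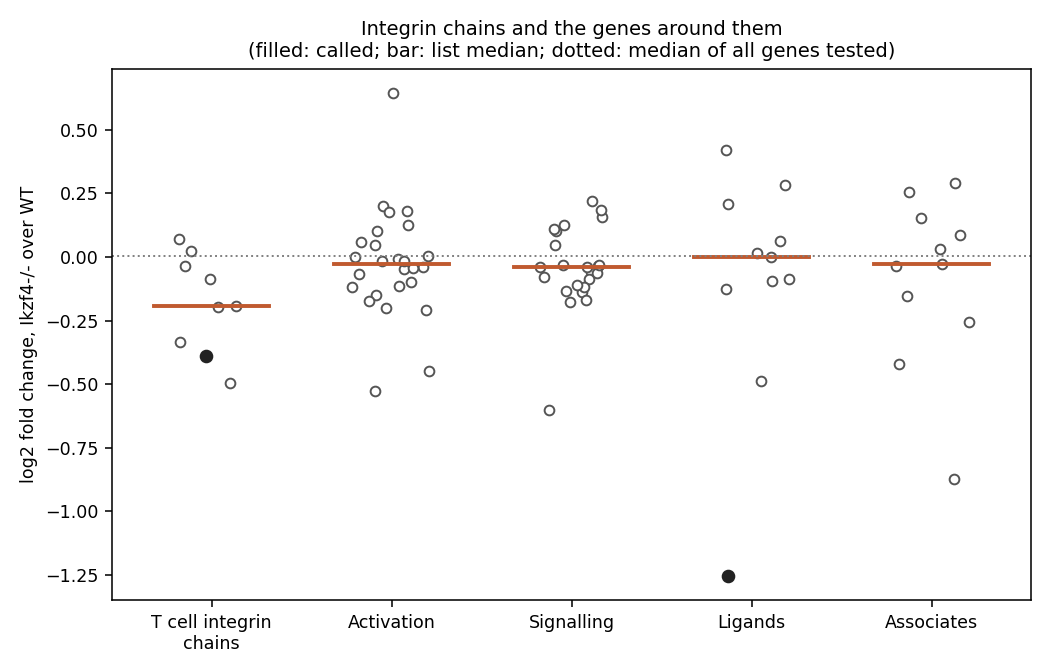
Log2 fold change (y axis, Ikzf4-/- over WT) of the 9 integrin chains and of the tested genes for activation (26), signalling (23), ligands (11) and membrane associates (11), with list medians as bars and called genes filled. The median is -0.19 for the chains and between -0.04 and 0.00036 for the 4 lists, and the called genes are Itgb3 and Lama5.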

How the data were processed

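Total RNA of 6 Th2 cultures, 3 WT and 3 Ikzf4-/-, was sequenced. The submitters' processing notes name Trimmomatic 0.36, STAR 2.5.2b and DESeq2 with the builds GRCm38 and mm10, and the counting tool, its use of strand and the annotation are not given in the sources used here. In the deposited table each library has a column of signal at or above 0. It was read as normalized read counts, since within a tolerance of 0.01 every library had 100% of its values at whole multiples of 1 step. The authors' log2 fold changes and p-values were deposited in the same table. A count test was not run, because in Ikzf4-/- replicates 1 and 3 the step was too close to 1 for whole reads to count as recovered.

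Values were taken as log2(value + 1), which understates the change of low genes. Genes with a mean of at least 10 (14864) were fitted on genotype alone with limma 3.58.1 (R 4.3.3), using moderated variances that follow the mean (limma-trend). Two-sided p-values were adjusted over the whole table by Benjamini-Hochberg, with calls under 0.05. The procedure was also run on simulated data with the same dispersion for every gene. Real genes differ in spread, so no conclusion about the real libraries is drawn from that run. All 9 chains with a row passed the filter. Positions and exon lengths come from GENCODE M21 on GRCm38, where 14836 of 14868 identifiers matched. The integrin chains, the lists and the tests were chosen with earlier results of these data known. Named genes are the chains, Ikzf4, called list genes or, where a list had none, the 2 of smallest p, Itga7 and Itgae, and the 3 genes nearest to Itgb3. Any others (Tln1 and Fermt3, markers, Cerkl and chains in the closing section) were added after their values were seen.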

Additional observations from a re-analysis of the deposited data

How the results depend on the processing

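Ikzf4 kept its direction and call under each alternative run. Scaling by quantiles, upper quartile or equal totals, dropping the filter, requiring 10 in every library, and pseudocounts of 0.1 and 10 each left Itgb3 as the 1 integrin chain called, with the median of all genes moving by at most 0.027 on the log2 scale. Over the whole table, 263 genes were called, against 482 with array weights, 754 with the replicate number as a block, 815 in the authors' deposited table and 20 to 523 when 1 library was left out. The count of called chains was 0 to 2 when 1 library was left out, and 2 with the replicate block (Itgb3, and Itgb1 at an adjusted p of 0.0474) and in the authors' deposited table. The listed genes around the integrins were 10 other chains and lists of 26, 23, 11 and 11 tested genes. Over all genes the main fit called 1.77%, and the authors' deposited table called 6.34% of those with an adjusted p. Of the listed genes, 2 were called (Lama5 and Itga7), against 1 with a pseudocount of 0.1 and 8 with array weights. The count was 10 with the replicate block, 11 in the authors' deposited table and 0 to 7 when 1 library was left out. Why these counts differ was not tested. The block assumes that equal numbers pair the libraries. The labels do not say so, and for that reason the main fit did not take them as pairs. The deviations of same-numbered libraries correlated at 0.145, 0.0122 and 0.142, and 4 of the 6 libraries correlated best with their own number. Whether the numbers mark pairs was not tested. Without WT replicate 1 the fitted log2 fold change changed sign for Itgb2 (-0.0049) and Itga6 (0.037), neither of them called in any fit. Over the fits that left out 1 library it ran from -0.0049 to 0.048 for Itgb2 and from -0.12 to 0.037 for Itga6. For the 9 chains, 137 values under alternatives kept direction and call, 4 gained a call, 1 lost it and 2 reversed. With 3 libraries a genotype, chains of wide spread such as Itga5 and Itgb7 are measured with little precision. Planned count tests with DESeq2 or edgeR were not run.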

Other observations

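Of 16 further integrin chains listed, 10 had a row, and 1 of them, Itga7, was called, beside 1.77% of all genes tested. Itga7, a laminin-binding chain best known from muscle, lies on chromosome 10 (128933818 to 128958282, plus strand of GRCm38), 287826 bases from Ikzf4, the gene disrupted in these cells. It stood at 299, 95.2 and 67.9 in WT and at 21.2, 37.7 and 19.1 in Ikzf4-/- libraries (log2 fold change -2.28, limma adjusted p = 0.0437). Of the 6 fits that left out 1 library, 2 called it, those that left out WT replicate 1 or 3, and in the other 4 the adjusted p ran from 0.0666 to 0.157. Without WT replicate 1, its highest library, the log2 fold change was -1.66. Itgae, the alpha chain of the E-cadherin receptor, was low in both genotypes, at 36.2 to 55.3 in WT and 47.1 to 56.5 in Ikzf4-/- libraries (limma adjusted p = 0.735).

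Itga3, a laminin-binding alpha chain, had a length-scaled mean of 212 per kb, above Itgav at 155 per kb, though their ranges over the 6 libraries overlapped. Its normalized read counts were 1730, 1273 and 933 in WT and 1339.7, 1039 and 933 in Ikzf4-/- libraries, a spread within each genotype that was wider than the difference between them (log2 fold change -0.22, limma adjusted p = 0.598). Itga9, an alpha chain that pairs with Itgb1, stood at 89.7 per kb, in overlap with Itga4 and Itga5 (log2 fold change 0.18, limma adjusted p = 0.577). Itgb5, another beta partner of Itgav, was 48.8 times lower than Itgb3 per kb, at 139, 102 and 104 in WT and 93.8, 74.3 and 58.3 in Ikzf4-/- libraries. Its genotypes did not overlap, and its log2 fold change of -0.61 was not called (limma adjusted p = 0.178).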
